A study of Rattus norvegicus with 20 samples.

Results

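The genes described here code for splicing factors and the proteins related to them, chosen from the array by name: heterogeneous nuclear ribonucleoproteins (hnRNPs), serine/arginine-rich (SR) and SR-like proteins, proteins of the small nuclear ribonucleoproteins (snRNPs) and subunits of splicing factor 3 (SF3). The name rule found 40 genes on 68 probes, of 41012 non-control probes in all, and the brightest probe stood for each gene. They are 18 hnRNP genes with Syncrip among them, 8 SR and SR-like genes, 8 snRNP genes and 6 SF3 genes. All 40 passed the filter on dim probes, and 33094 genes of the array were tested with them.

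The samples were neurons of rats aged 2 months, cut out by laser capture after a stroke. Tracer CTb-Alexa 488 (cholera toxin B with a fluorescent dye) went into cortex beside the infarct, and CTb-Alexa 647 followed at the same place 7 or 21 days later in separate cohorts. The 2 tracers separate sprouting neurons from non-sprouting neurons, and about 300 of each were captured from every animal 7 days after the later tracer. The groups are day 7 and day 21, with 5 animals each, and all of them had a stroke and both tracers. The strain, sex and stroke method are not given in the labels used here, and no animal without a stroke was analysed here. Each animal gave 1 pair of RNA samples, amplified in 2 rounds and hybridised to 2 arrays with the dyes swapped, which makes 20 arrays of 10 animals.

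Splicing removes introns from the primary transcript. The snRNPs recognise the splice sites, and the SF3 complexes belong to the U2 snRNP, which binds the branch point. SR proteins mostly favour the use of nearby exons, hnRNP proteins often oppose it, and many hnRNPs also act in the transport, stability and translation of mRNA, which matters in neurons with long axons.

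The labelled cell type held only in part against its markers. Of 9 general neuronal markers 8 lay well above background on all 20 arrays in both cell types, and so did 5 of 5 GABAergic markers. Of 5 glutamatergic markers 2 could be tested, and 0 of them reached that level on all arrays. Markers of other cells lay well above background on all 20 arrays too. These were 6 of 9 for oligodendrocytes and 6 of 8 for astrocytes. For microglia and macrophages they were 5 of 9, and for endothelium and mural cells 4 of 7. The share of all genes at that level is not given here. A looser filter, every array of a cell type and day, kept 23358 genes, so these counts alone do not tell cell types apart. The median level stood at percentile 92.9 for neurons, 92 for GABAergic and 47.5 for glutamatergic neurons. It stood at 80.8 for microglia and macrophages, 80.1 for astrocytes, 74.6 for oligodendrocytes and 57 for endothelium and mural cells. The summed normalized intensity of the oligodendrocyte list ranged from 34735 to 74850 in sprouting and from 37236 to 70351 in non-sprouting samples at day 7. At day 21 it ranged from 11806 to 49521 and from 13107 to 43257. In such pooled samples, fewer cells of a type and less RNA per cell cannot be told apart.

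The arrays differed in quality. The median signal was 98.7 to 344.7 in Cy5 and 133.9 to 281.4 in Cy3, and 40.3% to 94.6% of probes lay well above background. Over all genes the 2 dye-swapped arrays of an animal correlated at 0.33 to 0.73 in 9 animals. In replicate 4 of day 21 the correlation was -0.36 over all genes and -0.49 over the 40 genes, of which 9 had the same sign on both arrays. Its mean ratios were accordingly close to 0, with an SD of 0.06 over the 40 genes, so that animal stood apart. A wrong dye label on 1 of its arrays cannot be told from the labels, so the main results of day 21 are also given with either array turned or with the animal left out. With the first array turned 20 of the 40 genes had a mean above 0 at day 21, with the dye-swap array turned 17, and without the animal 19, against 19 as labelled. The shares of all genes above 0 were 49%, 49.3%, 48.9% and 49% in that order.

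The 250 bases before the annotated start are shown for Syncrip, which had the smallest unadjusted p of the 40 genes in the ratio, and for the 3 genes at an unadjusted p under 0.05 in the level of sprouting neurons between the days. The sequences are RefSeq's, on build GRCr8, written 5′ to 3′ along the gene. Capitals mark every match, on either strand, to CCAAT (the CCAAT box), GGGCGG (the GC box), TATAAA (the TATA box), CCGGAAG (an ETS core), AAGATGG (a YY1 core), TGACGTCA (the cAMP response element), GCATGCGC (an NRF1 site) or CACGTG (an E box), and matches may overlap.
Syncrip, chr8:98315387-98315636, minus strand: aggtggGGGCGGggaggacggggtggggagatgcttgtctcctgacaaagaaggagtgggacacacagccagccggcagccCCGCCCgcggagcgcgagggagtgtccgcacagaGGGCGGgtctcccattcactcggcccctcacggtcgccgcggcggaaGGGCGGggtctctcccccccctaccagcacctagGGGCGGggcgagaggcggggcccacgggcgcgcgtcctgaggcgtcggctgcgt
Hnrnpa2b1, chr4:81875887-81876136, minus strand: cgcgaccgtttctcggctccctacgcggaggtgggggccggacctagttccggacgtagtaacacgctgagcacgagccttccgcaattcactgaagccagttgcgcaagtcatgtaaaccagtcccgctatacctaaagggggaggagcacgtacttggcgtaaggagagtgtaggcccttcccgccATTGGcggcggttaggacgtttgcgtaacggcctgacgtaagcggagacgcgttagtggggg
Hnrnpl, chr1:93228151-93228400, plus strand: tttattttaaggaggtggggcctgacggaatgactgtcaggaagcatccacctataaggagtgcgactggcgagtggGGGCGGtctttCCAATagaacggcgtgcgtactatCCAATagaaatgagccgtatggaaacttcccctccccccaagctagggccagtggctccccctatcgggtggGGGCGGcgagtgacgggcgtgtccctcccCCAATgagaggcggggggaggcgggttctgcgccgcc
Hnrnpf, chr4:152755418-152755667, plus strand: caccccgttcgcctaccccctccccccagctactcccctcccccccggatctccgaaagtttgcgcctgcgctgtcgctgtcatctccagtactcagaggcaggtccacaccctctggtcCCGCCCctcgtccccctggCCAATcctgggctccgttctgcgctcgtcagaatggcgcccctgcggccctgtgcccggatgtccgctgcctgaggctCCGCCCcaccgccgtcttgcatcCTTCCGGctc
Promoters were found for 39 of the 40 genes. GGGCGG occurred in 24 of 39 (61.5%) against 30.5% of 33469 promoters in the table, and CCAAT in 17 of 39 (43.6%) against 34%. CCGGAAG occurred in 8 of 39 (20.5%) against 7.27%, and TATAAA in 5 of 39 (12.8%) against 12.9%. The median GC content was 60.4% against 51.2%. These are counts of letters in a window, and no factor's binding was measured.

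The first question was whether sprouting neurons held more or less of these transcripts than non-sprouting neurons of the same animal. At day 7 none of the 40 genes passed the test (limma, Benjamini-Hochberg adjusted p over all genes), with a background of 0.00302% of genes called. On the log2 scale 13 genes had a mean above 0 and 27 below, against 46.5% and 53.5% of all genes. The median of the 40 was -0.03, and that of all genes was -0.005. At an unadjusted p under 0.05, 1 gene was higher (Syncrip) and 3 were lower (Hnrnpd, Sf3b1 and Sf3b3), against a background of 4.49% higher and 5% lower. That count of 4 was 2 without replicate 5 of day 7 and 8 without replicate 2 of day 21. Both days were fitted together, so a day 21 animal enters the spread used at day 7. Over the other settings the count ran from 3 to 12, with 12 under median centring and 8 with the 20 arrays fitted singly. The count over all genes ran from 1695 to 4105 in those settings, the next brightest probe apart. With plain median centring of each array instead of the loess fit, 5 genes lay above 0, against 48.2% of all genes. The median of the 40 was then -0.18, against -0.005 for all genes, so the split at day 7 rests in part on the scaling.

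At day 21 again 0 of the 40 passed the adjusted test, with a background of 0%. The means of 19 genes lay above 0 and those of 21 below, against 49% and 51% of all genes, with a median of -0.007. At an unadjusted p under 0.05 the count was 1 higher (Syncrip) and 0 lower, against 3.47% and 2.38% of all genes. The count above 0 ran from 10 to 26 over the settings, given here with the share of all genes above 0 in brackets. It was 11 with median centring (53.9%), 10 with array weights (49.8%) or without replicates 2 and 4 (50.4%), and 26 with the processed signals of the scanner (43.8%). Without replicate 2 the count was 12 (50.3%), and without replicate 5 it was 23 (49.6%). The largest array weight, 2.148, went to replicate 4 of day 21, whose 2 arrays disagree. Over both days 13 lay above 0 and 27 below, against 46.9% and 53.1% of all genes, with a median of -0.02 against -0.003, and 0 passed the adjusted test (background 0%). At an unadjusted p under 0.05 this gave 1 higher and 2 lower, against 5.63% and 5.41%.

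**Figure D1:**
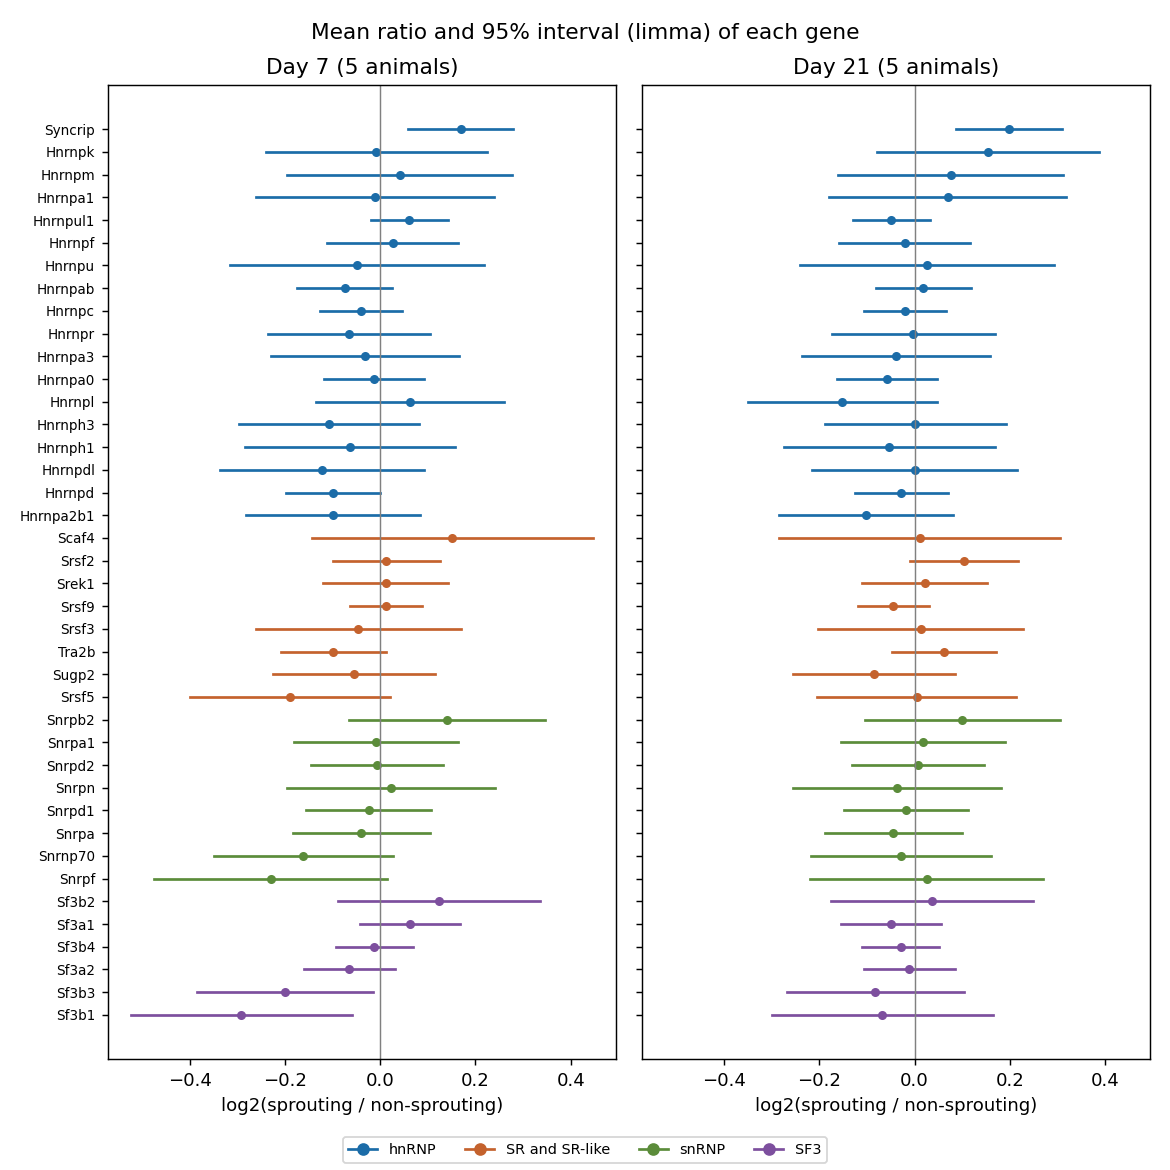
Mean log2 ratio of sprouting over non-sprouting neurons (horizontal axis) of each of the 40 genes at day 7 and at day 21, coloured by family. Points are means of 5 animals and lines are 95% intervals from limma. Syncrip lies above 0 on both days, at 0.17 and 0.20, and Sf3b1 is lowest at day 7, at -0.29.

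Syncrip, also called hnRNP Q, is an RNA-binding protein found in transported mRNA granules of neurons. Its log2 ratio in the 5 animals of day 7 was 0.19, 0.18, -0.003, 0.34 and 0.14, and in those of day 21 it was 0.14, 0.35, 0.18, 0.08 and 0.25. Sprouting neurons thus had the higher value in 9 of 10 animals and on 19 of 20 arrays as labelled. Without replicate 4 of day 21, whose arrays disagree, this was 8 of 9 animals and 17 of 18 arrays. With its first array turned it was 8 of 10 animals and with its dye-swap array turned 9 of 10, each with 18 of 20 arrays. Here and below, SE is that of limma, whose spread is pooled over both days and drawn toward that of all genes. Beside it, n counts only the animals in the mean. The mean ratio was 0.17 ± 0.05 (SE, n = 5) at day 7 and 0.20 ± 0.05 (SE, n = 5) at day 21. Over both days it was 0.18 ± 0.04 (SE), a 1.14-fold difference. The unadjusted p of 0.000351 ranked 25 among all genes, and the limma adjusted p was 0.394, so it did not pass. The normalized level was 6.70 ± 0.10 (SD, n = 5) in sprouting and 6.53 ± 0.13 (SD, n = 5) in non-sprouting neurons at day 7, and 6.87 ± 0.27 against 6.67 ± 0.30 at day 21, so the groups overlapped in level although most pairs ran the same way. The probe was dim, with a median net signal of 81.5 in Cy5 and 113.3 in Cy3. It was well above background on 20 of 20 arrays in sprouting and 18 of 20 in non-sprouting neurons. With the 20 arrays fitted singly and the animal as a random block, the adjusted p was 0.0202; over all planned and added settings it ran from 0.0202 to 0.564, and the ratio from 0.12 to 0.45.

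**Figure D2:**
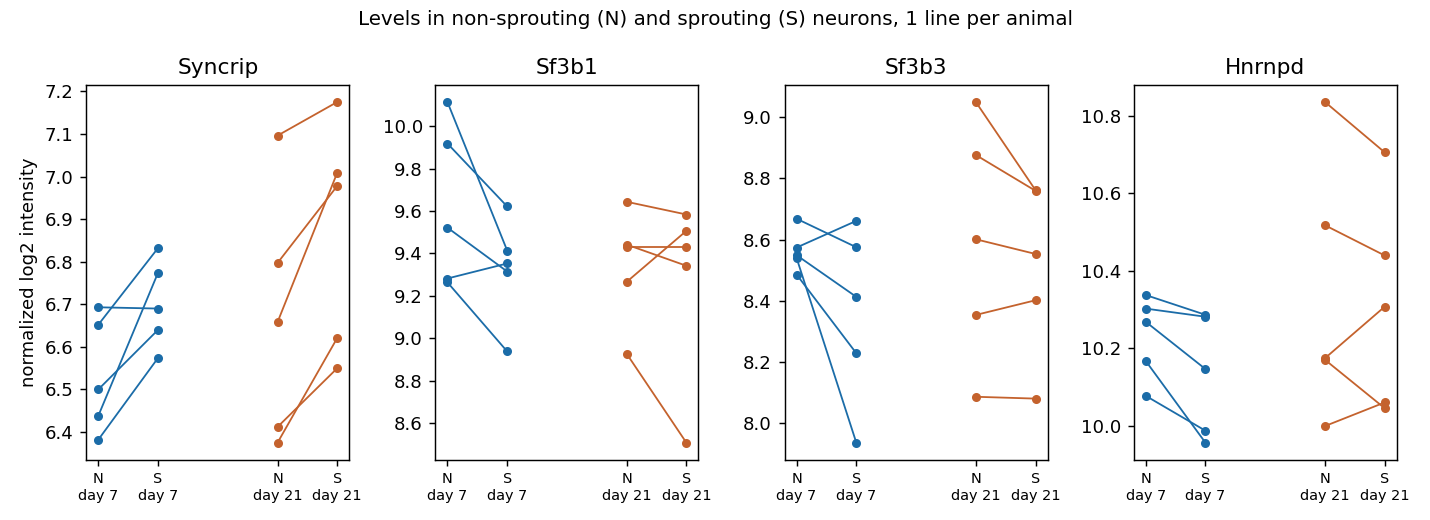
Normalized log2 intensity (vertical axis) in non-sprouting (N) and sprouting (S) neurons, with a line for each of the 5 animals of a day, for Syncrip, Sf3b1, Sf3b3 and Hnrnpd. The Syncrip lines run upward in 9 of 10 animals, while the levels of the groups overlap.

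Among the other hnRNP genes, Hnrnpd (AUF1, which binds AU-rich mRNA) was lower in all 5 animals of day 7, at -0.05, -0.12, -0.02, -0.21 and -0.09. Its mean was -0.10 ± 0.04 (SE, n = 5; unadjusted p = 0.0496 and adjusted p = 0.526, limma). Hnrnpdl, its close relative, was lower in 5 of 5 animals with a mean of -0.12 (adjusted p = 0.695, limma). Another Hnrnpdl probe, whose array name fell outside the name rule, gave -0.035 (SD 0.13) at day 7 and -0.032 (SD 0.24) at day 21. Hnrnpul1 was higher in 5 of 5 at 0.06, though its probe was well above background on 10 of 20 arrays in each cell type. Genes with the same sign in every animal of day 7 were thus 1 higher and 2 lower of 40, against 3.51% and 5.09% of all genes. At day 21 they were Syncrip, higher, and Srsf9 and Sugp2, lower, against 4.28% and 4.08%. Sugp2 counts there only through a value of -2e-04 in replicate 4, whose arrays gave 0.08 and -0.08, so it was lower in 4 animals and at 0 in the other. Over all 10 animals 0 of the 40 kept 1 sign, against 0.344% of all genes higher and 0.278% lower.

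Several well-studied hnRNPs, among the genes set for description, had ratios on both sides of 0 on each day. Hnrnpa1, a splicing repressor, had ratios of 0.26, -0.19, -0.08, 0.08 and -0.12 at day 7 and -0.15, 0.69, -0.08, -0.05 and -0.07 at day 21. Hnrnpk, which binds C-rich RNA, had 0.23, 0.03, -0.15, -0.09 and -0.07, then 0.11, 0.73, 0.03, 0.05 and -0.14. In both genes replicate 2 of day 21 was the highest animal. Hnrnpu, a nuclear scaffold protein, ranged from -0.43 to 0.35 at day 7 and from -0.35 to 0.54 at day 21. Hnrnpa2b1, which carries mRNA into processes, had means of -0.10 on both days (adjusted p = 0.709 and 0.898, limma). Without replicate 2 the day 7 mean was -0.002, and without replicate 5 the day 21 mean was -0.04.

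**Figure D3:**
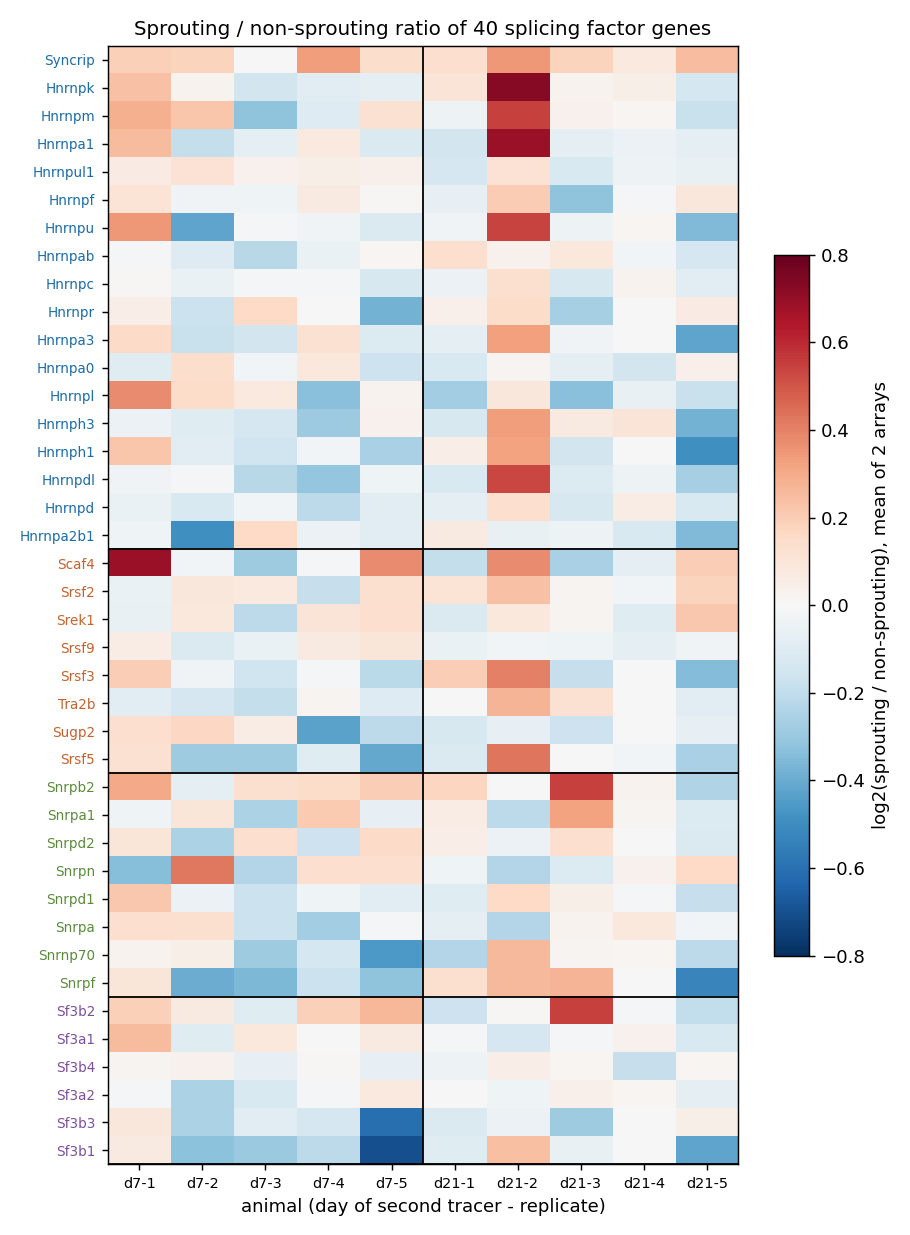
Log2 ratio of sprouting over non-sprouting neurons (colour; red, higher in sprouting) of each of the 40 genes in each of the 10 animals, with families separated by lines. The column of replicate 2 of day 21 is red over much of the hnRNP block, and that of replicate 4 of day 21 is pale throughout.

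In the SF3 complexes, Sf3b1, the subunit that contacts the branch point, had log2 ratios of 0.07, -0.33, -0.30, -0.21 and -0.70 at day 7, so 4 of 5 animals were lower. Its mean was -0.29 ± 0.10 (SE, n = 5; unadjusted p = 0.0184 and adjusted p = 0.477, limma). At day 21 it was -0.10, 0.24, -0.06, 0 and -0.42, with a mean of -0.07. The other probes of the gene disagreed: the next brightest gave 0.17 at day 7 and 0.24 at day 21, and the third gave -0.07 and -0.04. Sf3b3 had 0.09, -0.26, -0.09, -0.14 and -0.60 at day 7, with a mean of -0.20 ± 0.08 (SE, n = 5; adjusted p = 0.507, limma). In both genes replicate 5 was lowest and replicate 1 was the animal above 0, and without replicate 5 the means were -0.19 and -0.10. Sf3b2 lay at 0.12, Sf3a1 at 0.06, Sf3b4 at -0.01 and Sf3a2 at -0.07, so the subunits did not share a direction. Over the 5 animals of day 7, in the same order, the oligodendrocyte list had medians of -0.69, 0.22, -0.02, 0.86 and 0.96. At day 21 its medians were 0.67, -0.23, -0.30, 0.01 and -0.20. The part of oligodendrocytes in the SF3 values was not tested.

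Of the 8 SR and SR-like genes 4 lay above 0 and 4 below at day 7, and 6 above and 2 below at day 21. Tra2b, which activates exons with GA-rich sequences, had a mean of -0.10 at day 7 and 0.06 at day 21. The difference between the days, 0.16 ± 0.07 (SE), had an unadjusted p of 0.0432 and an adjusted p of 0.94 (limma). Its next brightest probe gave 0.10 at day 7, the opposite sign. Tra2b was the only gene of the 40 at an unadjusted p under 0.05 for this difference, against 2.35% of all genes higher and 1.73% lower, and 0 passed the adjusted test (background 0%). Srsf5 had a mean of -0.19 at day 7 with 1 of 5 animals above 0 (adjusted p = 0.547, limma), and Srsf2 had 0.10 at day 21 with 4 of 5 above 0 (adjusted p = 0.837, limma). The probe that stands for Srsf9 carries the description of another gene in the file, so its values are uncertain.

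Of the 8 snRNP genes 2 lay above 0 and 6 below at day 7, and 4 above and 4 below at day 21. Snrpf, a core Sm protein, had 0.10, -0.40, -0.36, -0.17 and -0.32 at day 7, with a mean of -0.23 ± 0.11 (SE, n = 5; adjusted p = 0.538, limma). Snrnp70, the protein that marks the U1 particle, had a mean of -0.16, and Snrpb2 of the U2 particle 0.14. Snrpn, the Sm protein of neurons, ranged from -0.34 to 0.42 at day 7 and from -0.24 to 0.16 at day 21, and its probe was saturated on 8 arrays.

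The families varied between animals. The median of the hnRNP genes ran from -0.08 to 0.09 over the animals of day 7. At day 21 it was 0.26 in replicate 2 and lay between -0.14 and -0.004 in the others. The SR median was likewise 0.25 in replicate 2, whereas the snRNP and SF3 medians of that animal were -0.03 and -0.01. In replicate 2 of day 21 29 of the 40 genes lay above 0, and in replicate 5 of that day 10 did.

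**Figure D4:**
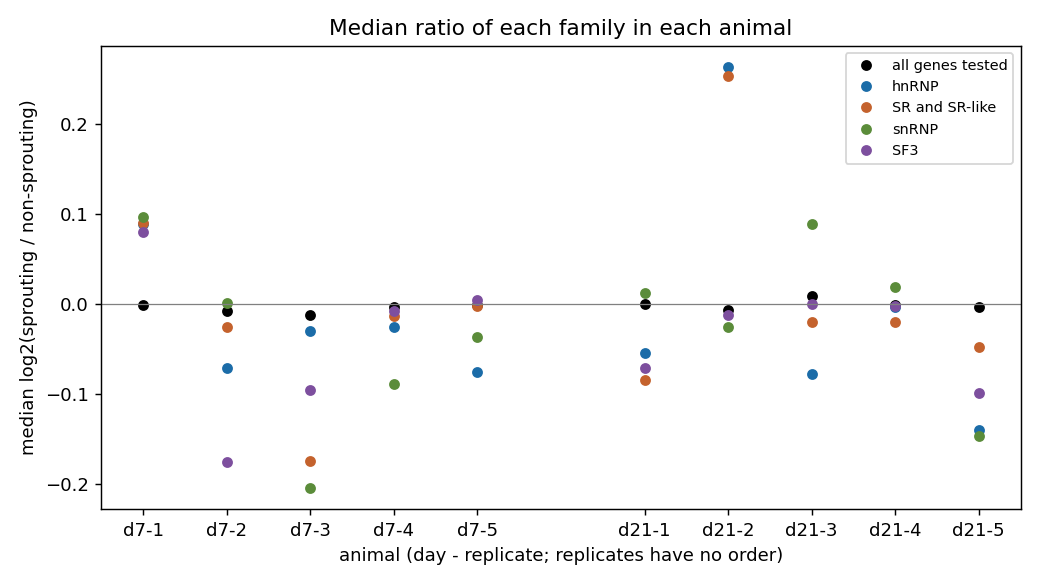
Median log2 ratio of sprouting over non-sprouting neurons (vertical axis) of each family and of all genes tested, for each of the 10 animals. In replicate 2 of day 21 the hnRNP and SR medians stand at 0.26 and 0.25, and the all-gene medians stay near 0 in every animal.

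Probes of the same gene were a further source of spread. Of 19 genes with several measured probes 10 had the same sign on all probes at day 7 and 10 at day 21. The widest gap was in Hnrnpr, a relative of Syncrip, whose brighter probe gave -0.07 and the other 0.49 at day 7. The third probe of Hnrnpa1 gave 0.37 at day 7 and 0.32 at day 21, against -0.01 and 0.07 for the brightest.

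Other splicing and RNA-binding genes were read for comparison, 93 of a list of 107. At day 7 0 passed the adjusted test, 40 lay above 0 and 53 below, and 7 were higher and 4 lower at an unadjusted p under 0.05, where all genes gave 4.49% and 5%. At day 21 these counts were 0, 47, 46, 2 and 2, where all genes gave 3.47% and 2.38%. The genes named next were chosen after their values were seen. Elavl1 (HuR, which stabilises mRNA) had 1.26, 0.29, 0.83, 0.04 and 0.29 at day 7, with a mean of 0.54 ± 0.15 (SE, n = 5; adjusted p = 0.432, limma). At day 21 its mean was 0.08. Prpf19, a core spliceosome protein, had a mean of 0.24 at day 7 (adjusted p = 0.461, limma), and Pum2, a translational repressor, -0.20 (adjusted p = 0.432, limma). Qki, which oligodendrocytes hold in large amounts, was highest in replicates 4 and 5 of day 7, at 0.74 and 0.96, where the oligodendrocyte medians were 0.86 and 0.96; the part of those cells was not tested.

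The second question was whether levels differed between the days within a cell type. In sprouting neurons 0 of 40 genes passed the adjusted test (limma, background 0%), 18 were higher and 22 lower at day 21 against 41% and 59% of all genes, and the median was -0.02 against -0.05 for all genes. In non-sprouting neurons the counts were 0 (background 0%), 16 and 24, against 40.5% and 59.5% of all genes, and the median was -0.04 against -0.05. At an unadjusted p under 0.05 there were 0 higher and 3 lower in each cell type, against 2.32% of all genes higher and 6.65% lower in sprouting and 2.31% and 6.89% in non-sprouting neurons. All of these were hnRNP genes. Animals scanned on the same days form a scan batch, and most batches held animals of only 1 day. With scan day as a block the all-gene median was 0.014 in sprouting neurons, with 52.8% of genes higher. In non-sprouting neurons it was 0.008, with 51.7% higher, so the shift of all genes between the days depends on this setting. One gene, Hnrnpul1, had no overlap between the days in sprouting neurons, lower at day 21, against 1.33% of all genes. The margin was small, with a lowest level of 6.108 at day 7 and a highest of 6.093 at day 21. Its probe was dim, with a median net signal of 44.2 in Cy5 and 89.4 in Cy3. In non-sprouting neurons 0 genes of the 40 had no overlap, against 1.37% lower of all genes.

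Hnrnpa2b1 had log2 levels in sprouting neurons of 9.92, 9.52, 9.83, 10.11 and 10.11 at day 7 and of 8.97, 9.25, 9.27, 9.40 and 9.71 at day 21. The days overlapped only through replicate 2 of day 7, which lay below the highest animal of day 21. The difference was -0.58 ± 0.16 (SE), a 1.49-fold lower level (unadjusted p = 0.00442 and adjusted p = 0.424, limma). In non-sprouting neurons it was -0.57 ± 0.20 (SE; adjusted p = 0.498, limma). Within the 2 scan batches that hold both days the sprouting difference was -0.40 and -0.85, and the non-sprouting difference was -0.10 and -0.88. The first of these batches holds 1 animal of each day, and the other holds 1 of day 7 and 2 of day 21.

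Hnrnpl, which binds CA repeats, had 10.20, 9.96, 9.56, 9.93 and 10.20 at day 7 and 8.70, 9.39, 9.54, 9.31 and 9.71 at day 21 in sprouting neurons, a difference of -0.64 ± 0.20 (SE; adjusted p = 0.456, limma). With all its probes averaged the sprouting difference was -0.08 (unadjusted p = 0.638, limma), and the non-sprouting difference of -0.42 became 0.01. Hnrnpf, which binds G-rich RNA, differed by -0.44 ± 0.17 (SE) in sprouting and -0.39 ± 0.18 (SE) in non-sprouting neurons (adjusted p = 0.537 and 0.54, limma). Hnrnph3 differed by -0.56 ± 0.18 (SE) in non-sprouting neurons (adjusted p = 0.488, limma). Its difference was -1.18 in the scan batch with 1 animal of each day and -0.03 in the one with 1 and 2. For all 4 genes the ranges of the days overlapped in both cell types. Over the same interval 7 of 9 oligodendrocyte and 4 of 8 astrocyte markers were lower in sprouting neurons at an unadjusted p under 0.05, against 6.65% of all genes. The list medians were -0.79 and -0.40. Those of neurons, endothelium and mural cells, and microglia and macrophages were -0.28, -0.26 and -0.10, and those of GABAergic and glutamatergic neurons 0.08 and 0.22. In non-sprouting neurons 1 of 9 and 0 of 8 were lower at that p, against 6.89% of all genes, with list medians of -0.43 and -0.23. The other medians there, in the order above, were -0.066, -0.265, -0.021, 0.119 and 0.223. The part of these cells in the hnRNP differences was not tested.

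**Figure D5:**
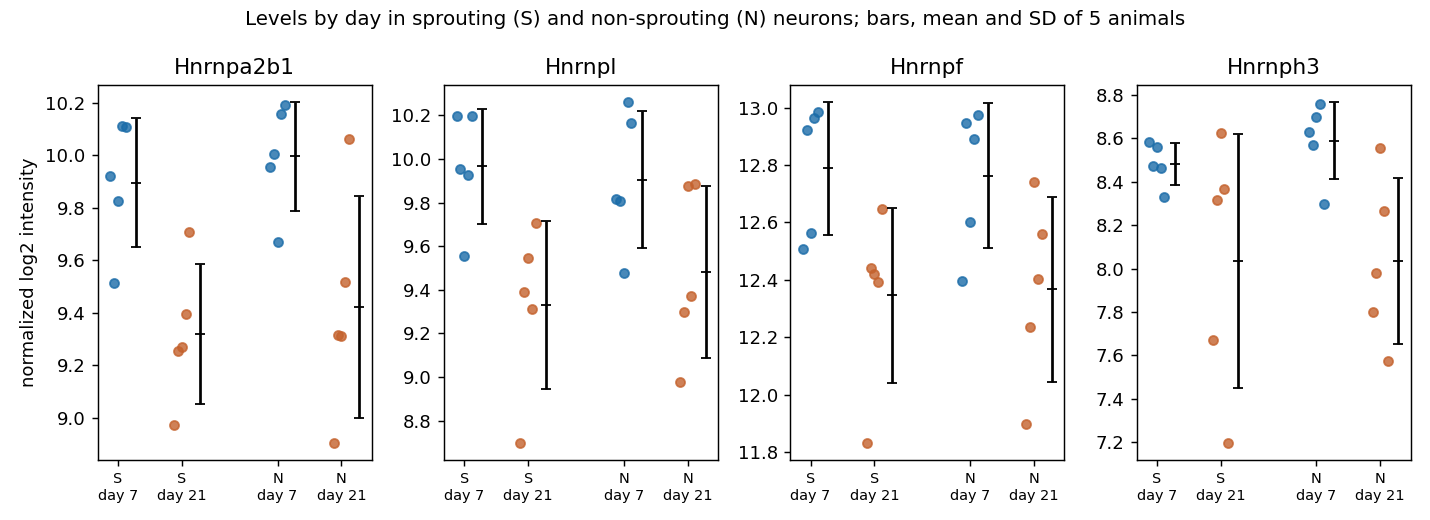
Normalized log2 intensity (vertical axis) of Hnrnpa2b1, Hnrnpl, Hnrnpf and Hnrnph3 in sprouting (S) and non-sprouting (N) neurons at day 7 and day 21. Points are animals, bars are the mean and SD of 5. Means are lower at day 21 in every panel, and the points of the days overlap.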

How the data were processed

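Both arrays of each animal were read from Agilent Feature Extraction 9.1.3.1 scanner files, whose intensity values, per the file headers, are mean signals and local background medians of both channels. The authors also deposited a table of log2 ratios by a method not given in the sources used here; 20 of its columns served as an alternative and 20 others were not used. Intensities were corrected with normexp (offset 50) and loess in limma 3.58.1 (R 4.3.3), turned to sprouting over non-sprouting, and averaged per probe and animal. The filter asked that a probe be well above background in a share of 0.5 or more of 1 cell type's arrays on 1 day, with 3 or more animals measured per day. Levels came from Aquantile normalization. Ratios and levels were tested with lmFit and eBayes over 33094 genes, two-sided, with Benjamini-Hochberg adjustment at 0.05. Each main fit held all 10 animals with a mean per day, so the spread was pooled over both days. The analysis was tested on simulated data. The number of arrays limits the precision. Each day used its own animals, and a shared replicate number names no pair. Names were updated with the GRCr8 gene table: 18 genes by accession, 10 by symbol and 12 by synonym. Genes described were, for each contrast, up to 5 in each direction by smallest unadjusted p, plus a fixed set. The members and lists were chosen with earlier results of these data known.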

Additional observations from a re-analysis of the deposited data

Results flagged for a closer look

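Of 132 groups of 5 animals checked, 7 held an animal far from the other four by Dixon's test, where chance gives about 1 in 20 (6.6 expected). At day 21 replicate 2 stood above the others in the ratio of Hnrnpa1 (0.69, others -0.15 to -0.05), Hnrnpdl (0.53, others -0.27 to -0.04), Hnrnpk (0.73, others -0.14 to 0.11) and Hnrnpm (0.55, others -0.18 to 0.03). Replicate 3 of day 21 stood above in the ratio of Sf3b2, at 0.55 with the others between -0.20 and 0.008. In sprouting neurons of day 21, replicate 5 had the low level of Snrpb2, 10.43 against 10.88 to 11.02, and replicate 1 that of Scaf4, 8.20 against 9.02 to 9.35.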

How the results depend on the processing

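The count of the 40 genes past the adjusted test was 0 in every contrast and setting run, except for 1 gene (Syncrip, mean of both days) with 20 arrays and the animal as a random block. That setting called 403 genes of the array at day 7, 509 over both days and 4 for the difference between days. The main values were 1, 0 and 0. The same setting left 2037 genes at an unadjusted p under 0.05 for the difference. It enters the 2 arrays of an animal, made from the same RNA samples, as separate values, so its 20 arrays are not 20 replicates. The 1 gene of the array called at day 7 became 0 with processed scanner signals, median centring, scaled ratios, probes averaged, the replicate block, or day 21 animals 2 and 4 left out together (the last chosen after seeing the data, like the next brightest probe), and 0 to 1 when animals were left out singly. Replicate numbers do not pair the animals: same-numbered animals of the days correlated at -0.19 to 0, and no animal correlated best with its own number. The replicate block left 2400 genes at an unadjusted p under 0.05 at day 7.

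Counts of genes at an unadjusted p under 0.05 were 1695 at day 7 with processed signals, 1224 at day 21 and 869 for the difference with the strict brightness filter, and with scan day as a block 3346 for the difference, 1503 for sprouting and 709 for non-sprouting levels. Median centring gave 5, 11 and 8 of the 40 genes above 0 at day 7, day 21 and over both days. Of all genes 48.2%, 53.9% and 48.4% lay above 0 there. The medians of the 40 were -0.184 at day 7, -0.115 over both days and 0.157 for the difference, against -0.005, -0.004 and 0.03 for all genes. At day 21 array weights, largest for animal 4, gave 10 above 0, as did leaving out animals 2 and 4, against 49.8% and 50.4% of all genes. The next brightest probe gave 21 over both days, against 46.9% of all genes. With single animals left out, the day 21 count at an unadjusted p under 0.05 ran from 1111 (without replicate 2) to 2172, and the genes above 0 from 12 to 23. The genes above 0 ran from 16 to 29 for the difference, where all genes gave 52.7% and 53.5% at these ends. For non-sprouting levels they ran from 10 to 20, where all genes gave 40.3% and 41.3%. The level counts ran from 1878 to 6056 in sprouting and from 1986 to 6442 in non-sprouting neurons.

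Signs turned as follows; the cause was not tested. With the next brightest probe, day 7 gave Sf3b1 0.174, Hnrnpa1 0.04, Tra2b 0.101 and Snrnp70 0. Day 21 gave Hnrnpl 0.14, Snrnp70 0.05 and Sf3b1 0.239. Both days gave Hnrnpk -0.059, Sf3b1 0.206 and Snrnp70 0.025, and the difference gave Hnrnpab -0.054 and Hnrnpl 0.029. With probes averaged, day 7 gave Hnrnpa1 0.132 and Tra2b 0.001, day 21 gave Snrnp70 0.007 and Sf3b1 0.044, and levels gave Scaf4 0.217 (sprouting) and Hnrnpl 0.011 (non-sprouting). Median centring gave Snrpb2 -0.016, Sf3a1 -0.009, Sf3b2 -0.044 and Snrpn -0.215 at day 7. It gave Hnrnpul1 0.041 and Hnrnpu -0.009 at day 21, and Sf3b2 -0.024 and Hnrnpk -0.038 over both days. Processed signals gave Snrpn -0.003 at day 7, and Hnrnpul1 0.141 and Snrpn 0.002 at day 21. With no brightness filter Hnrnpul1 was -0.003, 0.007 and 0.01 at day 7, day 21 and for the difference. Array weights gave Hnrnpa1 -0.003 and Hnrnpu -0.02 at day 21. Without animals 2 and 4, day 21 gave Hnrnpk -0.002, Hnrnpa1 -0.1, Hnrnpu -0.141 and Snrpn 0.005, and both days gave Hnrnpk -0.005. With the first array of day 21 animal 4 turned (also chosen after seeing the data), day 21 gave Hnrnpul1 0.002 and Hnrnpa0 0.007, and 1 gene of the array was called over both days. Scan day as a block gave Hnrnpab -0.012 for the difference and Sf3b2 -0.056 for the sprouting level. Leaving out 1 animal moved day 7 ratios of Hnrnpa1 from -0.077 to 0.035, Hnrnpk from -0.069 to 0.026, Hnrnpu from -0.147 to 0.046 and Snrpn from -0.076 to 0.114. At day 21 the ranges were -0.012 to 0.185 for Snrpb2, -0.086 to 0.124 for Hnrnpa1, -0.102 to 0.121 for Hnrnpu, -0.086 to 0.013 for Snrpn, -0.101 to 0.023 for Snrnp70 and -0.145 to 0.02 for Sf3b1.

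Dim probes limit what can be seen: Hnrnpul1 lay well above background on 10 of 20 arrays and Sf3b4 on 15 of 20 in sprouting neurons, and Snrpn was saturated on 8. Labels separate the animals of a day only by their replicate number. In the main fit p-values rest on the spread between animals, whose means already carry the spread between their 2 arrays. With the 20 arrays fitted singly, dye-swapped arrays of the same RNA samples enter as separate values, with 1 correlation of 0.578 for all genes. That fit counts more values than there are animals, so it is not the stricter one.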
